A study of Mus musculus with 6 samples.

Results

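A set of 10 genes linked to regeneration, damage or a fetal-like state of epithelium was followed in sorted Paneth cells (PCs). The cells came from mice injected with tumour necrosis factor (TNF) or with PBS. The genes were Ly6a, Ly6e, Clu, Anxa1, Anxa2, Anxa3, S100a6, S100a11, Sprr1a and Sprr2a3, and all 10 were found by Ensembl identifier among the 55414 genes of the count table. They had been picked with earlier results of these libraries known, among them the TNF against PBS difference itself. Their values are therefore given below as a description, no p-value is given for them, and nothing is read from how many of them a test called. RNA had been sequenced from PCs of the small intestine of 6 mice of strain C57BL/6J, all of them Ifnar1 knockouts, taken 15 h after an injection of PBS (3 mice) or TNF (3 mice), with 1 library per mouse according to the labels. Ifnar1 encodes a subunit of the receptor for type I interferons, so the PBS controls lacked this receptor too, and no library of wild-type mice was part of the comparison. The labels give neither the dose of TNF nor the age or sex of the mice.

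PCs sit at the base of the crypts, between the stem cells, and release antimicrobial peptides and lysozyme from large granules. When the crypt is injured, by irradiation, infection or inflammation, surviving epithelial cells can take on a transient state that resembles the fetal gut. This state is known for the surface antigen Sca-1 (the product of Ly6a), for clusterin, for annexins and for small calcium-binding S100 proteins, while the usual stem cell genes recede, and it has been tied to the transcriptional coactivator YAP. Mature PCs have also been described as able to leave their secretory state after injury. Small proline-rich proteins (Sprr) are best known as building blocks of the tough outer layer of skin, and they appear in gut epithelium under stress or on contact with bacteria.

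The libraries held 12747484 to 17039511 counts and 16483 to 18449 detected genes. Levels are given as CPM, counts rescaled to the same total in every library, after scaling the libraries by the trimmed mean of M-values method (TMM). Where values are listed per library, they are in the order of replicates 1, 2 and 3 of each group. A number of 3 counts, the limit that a count of 0 allows, corresponded to 0.147 to 0.255 CPM, for counting error only. All 12 Paneth cell markers of the list used here were present, with a summed level of 256524 to 563384 CPM, so the label of the cells fits its markers. TNF replicate 1 stood apart from the other TNF libraries. Across genes, its log2 CPM correlated with the PBS libraries at r = 0.937 to 0.945 and with TNF replicates 2 and 3 at 0.884 and 0.883, whereas TNF replicates 2 and 3 correlated with each other at 0.954. The label of this library was kept, and results are given with and without it. It was singled out with its likeness to PBS known. Errors given without it depend on that choice and do not cover the spread of the whole TNF group. Ifnar1 RNA was still counted, at 5.19 to 9.55 CPM after PBS and 5.18 to 12.7 CPM after TNF, which checks nothing in the absence of a wild-type library. TNF replicate 3 held both Xist, at 192 CPM, and 669 counts of 4 Y-linked genes, a combination that no other library showed at such levels (PBS replicate 3 had 846 Y-linked counts beside 9.4 CPM of Xist, and the others had at most 2). This goes against a library from a single mouse as labelled. Without TNF replicate 3 the log2 fold changes of TNF against PBS, defined with the results, were between 0.76 and 5.13 for the 7 tested genes that were higher in TNF, and -0.01 for Ly6e.

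The promoters of 4 of the genes are shown, 3 because they hold the AP-1 letters described next and that of Ly6a because it is the gene with the largest difference. Each line is the 250 bases that precede the start of the canonical transcript, written 5′ to 3′ on the strand of the gene, from mouse assembly GRCm39 with the starts of GENCODE. Capitals mark matches to the motifs searched. S100a11 is on the plus strand (chr3:93427427-93427676), Anxa2 on the plus strand (chr9:69360652-69360901), Sprr1a on the minus strand (chr3:92393209-92393458) and Ly6a on the minus strand (chr15:74869484-74869733).
S100a11: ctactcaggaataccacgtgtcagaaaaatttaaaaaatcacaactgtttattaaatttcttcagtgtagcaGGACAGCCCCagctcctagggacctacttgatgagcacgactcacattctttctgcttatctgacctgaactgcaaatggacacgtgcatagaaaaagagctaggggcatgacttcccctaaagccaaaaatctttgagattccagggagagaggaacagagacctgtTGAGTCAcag
Anxa2: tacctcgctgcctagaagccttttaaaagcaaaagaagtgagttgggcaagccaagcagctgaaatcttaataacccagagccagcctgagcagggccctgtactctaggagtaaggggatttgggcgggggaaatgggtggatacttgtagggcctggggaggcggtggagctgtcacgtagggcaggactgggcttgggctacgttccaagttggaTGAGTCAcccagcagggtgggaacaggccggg
Sprr1a: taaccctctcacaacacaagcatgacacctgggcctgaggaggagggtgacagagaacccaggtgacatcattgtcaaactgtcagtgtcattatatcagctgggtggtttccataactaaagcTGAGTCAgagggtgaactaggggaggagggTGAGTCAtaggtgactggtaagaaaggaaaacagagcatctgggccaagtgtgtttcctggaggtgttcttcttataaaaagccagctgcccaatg
Ly6a: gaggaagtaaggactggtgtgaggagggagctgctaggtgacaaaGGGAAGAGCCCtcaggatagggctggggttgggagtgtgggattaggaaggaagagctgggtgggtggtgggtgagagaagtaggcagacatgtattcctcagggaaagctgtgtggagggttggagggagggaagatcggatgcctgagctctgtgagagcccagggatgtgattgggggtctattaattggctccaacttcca

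The letters TGANTCA, the core bound by AP-1 factors of the Fos and Jun families, were found in 3 of the 10 promoters and in 6.18% of 21757 promoters of the same length. Anxa2 carried a match 32 to 26 bases before its start, S100a11 carried it 10 to 4 bases before its start, and Sprr1a carried a pair, at 126 to 120 and at 96 to 90 bases. All 4 of these matches read TGAGTCA. A loose form of the NF-kB site, GGG and CC with any 5 bases between them, was found in Ly6a, S100a6 and S100a11, against 47.8% of all promoters. In Ly6a a pair of such matches overlapped by all but 1 base, so that the capitals form a single run. No match was found in the 10 windows for the core of the interferon-stimulated response element, GAAA and GAAA with any 2 bases between them (3.32% of all promoters), for the STAT site, TTC and GAA with any 3 bases between them (7.7%), or for GGAATG, the site of the TEAD partners of YAP (12.1%). Both strands were searched, and no match to 1 motif overlapped a match to another. A match is a run of letters in this window and was not tested as a binding site.

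In PBS libraries the genes spanned the whole range from abundant to absent. Compared per kilobase of exon, the mean level was 22.8 ± 12 CPM per kb for Ly6e (SD, n = 3, as for all mean levels here), 9.93 ± 0.819 for Anxa2, 3.40 ± 0.871 for S100a6 and 1.41 ± 0.128 for S100a11. All the others were below 1 CPM per kb, from 0.259 ± 0.150 for Anxa1 and 0.179 ± 0.0309 for Clu to 0.0918 ± 0.0443 for Anxa3, 0.084 ± 0.0767 for Sprr2a3 and 0.00958 ± 0.0166 for Ly6a, and Sprr1a had no count. Neighbours in this order whose PBS libraries overlapped were Anxa1 and Clu, Anxa3 and Sprr2a3, and Sprr2a3 and Ly6a. In TNF libraries Anxa2 had the highest mean, 69.7 ± 57.3 CPM per kb, ahead of Ly6e at 21.4 ± 2.53 and S100a11 at 21.3 ± 17.4, with TNF replicate 1 far from the other TNF libraries in Anxa2 and S100a11. Summed over the 10 genes, the level was 232, 125 and 148 CPM after PBS and 163, 889.6 and 678 CPM after TNF. In counts, not corrected for length, Ly6e made up most of that sum in the PBS libraries and in TNF replicate 1 (52.8% to 71.6%), and Anxa2 did so in TNF replicates 2 and 3 (66.9% and 62.7%). Because these are bulk samples, a change in the number of cells that express a gene and a change in RNA per cell cannot be told apart.

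**Figure D1:**
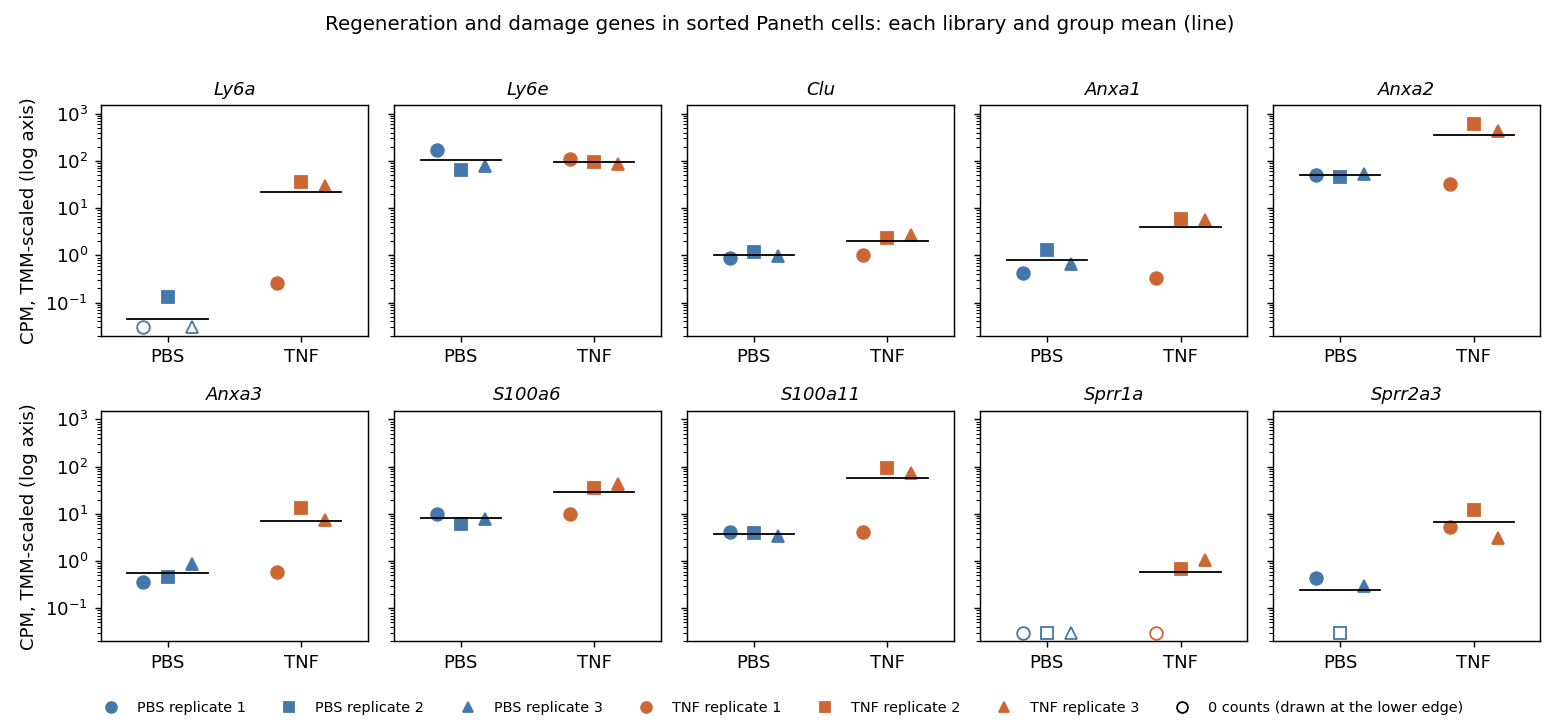
Level of each of the 10 genes in every library, as TMM-scaled CPM on a log axis, with a line at the mean of each group of 3 and open symbols at the lower edge for libraries without a count. TNF replicates 2 and 3 lie above all PBS libraries for 9 genes, while TNF replicate 1 does so clearly for Sprr2a3, at 5.27 CPM, and Ly6e shows no separation.

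Ly6a encodes Sca-1, a lipid-anchored surface protein used to isolate blood stem cells and to recognise fetal-like gut epithelium. It lies on chromosome 15 (chr15:74863840-74869880, minus strand, ENSMUSG00000075602). Its level was 0, 0.133 and 0 CPM after PBS and 0.255, 36.3 and 29.2 CPM after TNF. In counts this was 0, 2 and 0 against 3, 743 and 363, so that Ly6a went from the detection limit to a moderately expressed gene in TNF replicates 2 and 3 and stayed at the limit in TNF replicate 1. The ratio of the summed counts, 1109 in TNF against 2 in PBS and corrected for library size, was 528 with an exact 95% interval of 146 to 4361 that covers counting error only. With enough counts in only 2 libraries, Ly6a did not pass the low-count filter of the comparison of all 6 libraries. Without TNF replicate 1 it did, with a log2 fold change of 9.23 ± 0.51 (standard error, SE, as for all log2 fold changes here). With 2 counts in PBS this SE understates the error, since the interval from counting error alone is wider. The size of the difference is therefore poorly determined. Of its 75-base stretches, 10.6% also occur in other genes, among them Ly6c1 and Ly6i, so part of its counts cannot be assigned to it with certainty.

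Ly6e, a lipid-anchored relative of Ly6a that is often induced by interferon, showed a different picture. The gene lies in the same cluster (chr15:74826860-74847454, plus strand, ENSMUSG00000022587). Its level was 167, 65.9 and 79.6 CPM after PBS and 109, 97.3 and 86.2 CPM after TNF. The TNF libraries lay within the range of the PBS libraries, and the highest value of all was that of PBS replicate 1. The log2 fold change was -0.09 ± 0.34, and it was 0.43 without PBS replicate 1, 0.02 with limma-voom and 0.02 with the replicate number as a block, so it had no stable sign. Ly6e was the most abundant of the 10 genes per kilobase in PBS and the only 1 of them for which TNF replicates 2 and 3 were not both above the PBS libraries.

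Clu encodes clusterin, a secreted chaperone that marks a rare regenerative cell of the injured crypt (chr14:66190200-66218999, plus strand, ENSMUSG00000022037). It was measured at 0.866, 1.20 and 0.955 CPM after PBS and at 1.02, 2.35 and 2.74 CPM after TNF. These levels rest on 12 to 18 counts per PBS library and 12 to 48 counts per TNF library. TNF replicates 2 and 3 were above the PBS range and TNF replicate 1 was inside it. The log2 fold change of 1.01 ± 0.62 was the smallest among the genes that were higher in TNF.

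Annexins bind membrane phospholipids when calcium rises, and take part in membrane repair and secretion. Anxa2, whose product pairs with S100A10 at the cell membrane (chr9:69360542-69399077, plus strand, ENSMUSG00000032231), was at 49.7, 45.9 and 54.2 CPM after PBS and at 32.6, 595 and 425 CPM after TNF. The PBS libraries agreed closely, with a coefficient of variation of 8.25%, TNF replicates 2 and 3 were 11.9 and 8.51 times their mean, and TNF replicate 1 was below all 3 of them. The log2 fold change was 2.81 ± 0.78 over all 6 libraries and 3.37 ± 0.24 without TNF replicate 1. With 12157 and 5277 counts in TNF replicates 2 and 3, Anxa2 was the best counted of the 10 genes there.

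Anxa1, an annexin known for dampening inflammation (chr19:20350792-20368374, minus strand, ENSMUSG00000024659), was at 0.433, 1.33 and 0.661 CPM after PBS and at 0.34, 5.92 and 5.72 CPM after TNF. Its log2 fold change was 2.29 ± 0.91, and 2.84 ± 0.56 without TNF replicate 1, which held 4 counts and had the lowest level of the 6. Anxa3 (chr5:96940544-96993828, plus strand, ENSMUSG00000029484) was at 0.361, 0.467 and 0.882 CPM after PBS and at 0.595, 13.2 and 7.41 CPM after TNF. The 3 annexins thus shared 1 pattern, with both TNF replicates 2 and 3 above every other library and TNF replicate 1 inside or below the PBS range. For Anxa3 the log2 fold change was 3.62 ± 0.94 over all libraries and 4.18 ± 0.50 without TNF replicate 1.

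S100 proteins are small calcium sensors that bind annexins and other partners. S100a11, whose product binds annexin A1 (chr3:93414382-93435293, plus strand, ENSMUSG00000027907), was at 4.04, 3.87 and 3.38 CPM after PBS and at 4.08, 91.8 and 74.7 CPM after TNF. Its PBS level was as even as that of Anxa2, with a coefficient of variation of 9.11%, and TNF replicates 2 and 3 were 24.4 and 19.9 times the PBS mean. TNF replicate 1 lay above the PBS libraries by a hair, and below all of them when CPM were not TMM-scaled (3.25 against 3.61 to 4.28). The log2 fold change was 3.92 ± 0.87, and 4.48 ± 0.22 without TNF replicate 1. S100a6, also called calcyclin (chr3:90520140-90535843, plus strand, ENSMUSG00000001025), was at 10.1, 6.01 and 7.86 CPM after PBS and at 9.94, 35.5 and 42.7 CPM after TNF. TNF replicates 2 and 3 were again above the other 4 libraries, and TNF replicate 1 was inside the PBS range. The log2 fold change was 1.88 ± 0.48, or 2.31 ± 0.25 without TNF replicate 1.

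Sprr2a3 and Sprr1a encode small proline-rich proteins and lie in the cluster of such genes on chromosome 3. Sprr2a3 (chr3:92192724-92198712, plus strand, ENSMUSG00000074445) was at 0.433, 0 and 0.294 CPM after PBS and at 5.27, 11.9 and 3.14 CPM after TNF, or 6, 0 and 4 counts against 62, 243 and 39. It was the gene for which TNF replicate 1 was far above the PBS libraries, at 21.8 times their mean, and it was higher there than in TNF replicate 3. The log2 fold change was 4.78 ± 0.89, and 4.96 ± 0.85 without TNF replicate 1. Of its 75-base stretches, 47.5% also occur in other genes, chiefly Sprr2a1 and Sprr2a2, so that its counts may include or lack reads of these copies. Sprr1a (chr3:92390424-92393208, minus strand, ENSMUSG00000050359) had no count in any PBS library or in TNF replicate 1, and 14 and 13 counts in TNF replicates 2 and 3 (0.685 and 1.05 CPM). Set against a floor of 3 counts over the PBS group, its summed counts, corrected for library size, were 8.56-fold higher in TNF. This ratio leaves out the counting error of the TNF counts and is no strict lower bound.

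Over all 6 libraries, 0 of the 8 genes that passed the low-count filter had a Benjamini-Hochberg adjusted p under 0.05 in the quasi-likelihood test of edgeR, against 0% of the 13026 genes tested. At an unadjusted p under 0.05 there were 6 of the 8, against 12.3% of all genes tested (1596 genes). DESeq2 called 4 of the 8 (Anxa3, S100a6, S100a11 and Sprr2a3). Among the 11741 genes to which it gave an adjusted p, the share called was 2.06%, or 1.75% higher in TNF. Without the low-count filter edgeR called 7 of the 10 (all but Ly6e, Clu and Sprr1a), against 2.94%, or 2.1% higher in TNF. The test of limma-voom called 0 of the 8, with 0% of all genes called and 12.8% at an unadjusted p under 0.05. Without TNF replicate 1 edgeR called 8 of the 10, all higher in TNF and all but Ly6e and Clu, against 14.5% of 13660 genes tested, or 9.1% higher and 5.4% lower, with 28.4% at an unadjusted p under 0.05. Ly6a and Sprr1a passed the filter there only through the TNF libraries in which they are high, and of the 8 genes tested over all libraries this fit called 6 higher, against 8.91% higher and 5.6% lower of the 13026 genes. Leaving out any other library gave 0 calls. In 2 of the 8 genes tested over all libraries, S100a11 and Sprr2a3, every TNF library was above every PBS library, against 9.07% of all genes, and in 0 of the 8 every TNF library was below every PBS library, against 7.82%. The median log2 fold change was 2.55 over the 8 genes and -0.00 over all genes tested. Since the genes were picked on this contrast, nothing is read from these counts or from the gap between these medians.

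**Figure D2:**
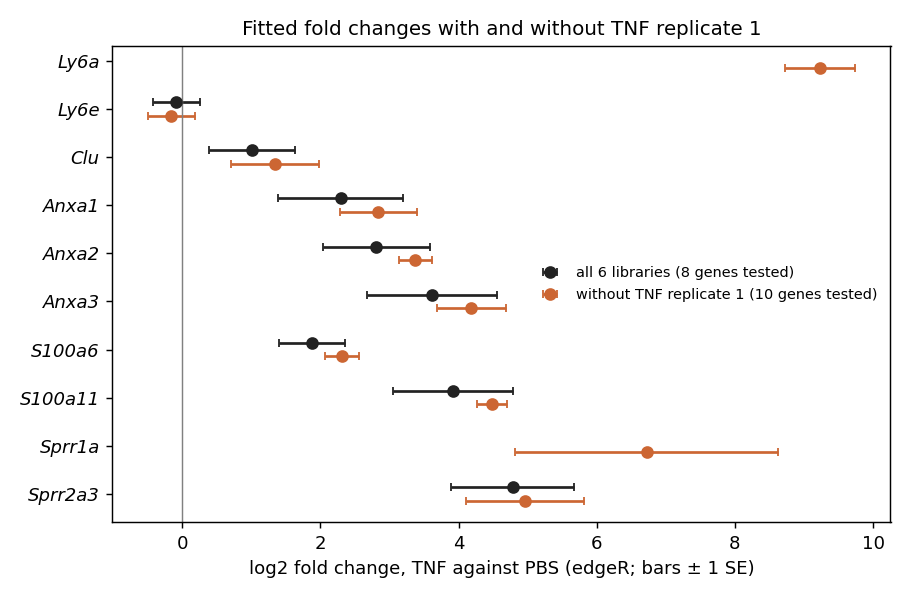
Log2 fold change of TNF against PBS from edgeR, with bars of 1 SE, over all 6 libraries (black, 8 genes tested) and without TNF replicate 1 (orange, 10 genes tested). Leaving the library out moves Anxa2 from 2.81 ± 0.78 to 3.37 ± 0.24, narrows the bars of S100a11 in the same way, and leaves Ly6e near 0. That library was left out with its likeness to PBS known, so the narrower bars depend on that choice. The value of Sprr1a, which has no count in PBS, depends on the prior count of the fit and is no bound. That of Ly6a rests on 2 counts in PBS, and its bar is narrower than counting error alone.

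The patterns of the genes across the libraries were also compared. Over the 6 libraries, the Pearson correlation of log2 CPM was 0.985 between Anxa2 and S100a11, 0.978 between Anxa2 and Anxa3, and 0.97 between S100a6 and S100a11. Sprr2a3 was less like the annexins, from 0.438 with Anxa1 to 0.713 with Anxa3, and Ly6e was unlike all of them, from -0.378 with Anxa1 to 0.259 with Sprr2a3. These correlations rest on 6 points that share their libraries, and in 6 of the 8 genes TNF replicates 2 and 3 set the highest points. Since the genes were picked on the TNF against PBS difference, a shared pattern was partly built in, and nothing is read from it.

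Genes with the most similar pattern were looked up among the other 13018 tested genes. For Anxa2 they were Mvp (major vault protein, r = 0.9996), Msmo1 (a cholesterol synthesis enzyme, 0.9995) and Dtx3l (a ubiquitin ligase, 0.9983), and Mvp was at 44.9, 44.1 and 45.9 CPM after PBS and 35.1, 200.1 and 159 CPM after TNF. For S100a11 they were the tropomyosin Tpm3 (0.9997), the small GTPase Rhoc (0.9990) and the cold-inducible RNA-binding protein Cirbp (0.9982). A correlation of at least 0.95 was common, with 419 genes for Anxa2 and 430 genes for S100a11, so these names are the top of a long list. For Anxa3 they were Stard3, Tnfrsf11a (the receptor RANK) and B3galt5, for Anxa1 Ikbke (an IkB kinase), Lrrfip2 and Gsap, for S100a6 Cd151 (a tetraspanin), Tmsb10 (a thymosin that binds actin) and Bok, and for Clu Plec (plectin), Ptpn23 and Nbeal2. Sprr2a3 had a shorter list of 30 genes, led by Hnrnpk (0.9931), Eda2r (a p53 target of the TNF receptor family, 0.9888) and Emp2 (0.9878). Eda2r was at 5.55, 3.20 and 4.78 CPM after PBS and 15.7, 21.7 and 9.50 CPM after TNF, the same order of TNF libraries as Sprr2a3. Ly6e had 16 such genes, led by Ahcy, Gjb2 and Vmac.

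The families of these genes were examined next, without the 10 genes themselves. The family and pathway lists were written with earlier results known and are not independent evidence of a direction. Over all 6 libraries edgeR called 0 of the 190 tested genes of all comparison lists, with a smallest adjusted p of 0.27 and with 64 genes at an unadjusted p under 0.05, while DESeq2 called 24 and limma-voom 0. Without TNF replicate 1 the same fit called 63 of these 190 higher and 24 lower. This library was left out with its likeness to PBS known, so those calls depend on that choice. They are given below as counts, over genes that had passed the low-count filter over all 6 libraries, and no p-value of that fit is given. The backgrounds for such counts are the 8.91% higher and 5.6% lower named above.

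Of 6 other annexins tested, 2 were called higher and 1 lower without TNF replicate 1. Anxa5, widely used to stain dying cells, was at 29.1, 13.1 and 15.0 CPM after PBS and at 13.2, 66.2 and 46.6 CPM after TNF, a log2 fold change of 1.14 ± 0.52 over all libraries. For Anxa7 it was 1.15 ± 0.40. Both were among the genes called higher, and Anxa13, an annexin of gut epithelium, was the gene called lower, with -0.23 ± 0.34 over all libraries and -0.73 ± 0.21 without TNF replicate 1. Anxa4 was at 293 to 363 CPM after PBS and at 267 to 444 CPM after TNF, and Anxa11 at 103 to 127 and 73.3 to 186 CPM, both without a call. The median of the list was 0.15 over all libraries and 0.39 without TNF replicate 1.

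Of 5 other S100 genes tested over all libraries, 3 were called higher and 0 lower without TNF replicate 1. S100a10, the partner of annexin A2, was at 35.1, 38.6 and 34.7 CPM after PBS and at 58.4, 221 and 292 CPM after TNF, so that all TNF libraries were above all PBS libraries, with a log2 fold change of 2.40 ± 0.49. S100a16 was at 30.0 to 38.4 CPM after PBS and at 44.4, 99.3 and 135 CPM after TNF (1.47 ± 0.36), and S100a14 had a log2 fold change of 1.64 ± 0.58. S100a1 was at 32.4 to 40.6 CPM after PBS and 34.0 to 56.9 CPM after TNF, without a call. S100a9, a subunit of the neutrophil protein calprotectin, did not pass the filter over all libraries, with no count in PBS or TNF replicate 1 and 1.27 and 1.05 CPM in TNF replicates 2 and 3. S100g, a calcium carrier of enterocytes, did not pass it either, at 0.0735 to 3.46 CPM after PBS and 0.765, 0 and 0 CPM after TNF.

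The Sprr family was otherwise close to silent. Of 14 other Sprr genes, 3 had a count in any library (Sprr2a1, Sprr2a2 and Sprr2b, at most 0.44 CPM), and 0 could be tested. In the Ly6 family, 5 other genes passed the filter over all libraries, and 2 of them were called higher and 0 lower without TNF replicate 1. Ly6g2 was at 2.09, 1.20 and 0.22 CPM after PBS and at 1.70, 5.58 and 9.26 CPM after TNF, a log2 fold change of 2.23 ± 0.80, and Lypd6b had 0.72 ± 0.42. Lypd8, whose product keeps bacteria away from the epithelium, was at 214 to 291 CPM after PBS and 201 to 266 CPM after TNF, without a call. Ly6g6f had a log2 fold change of -0.84 ± 0.45, also without a call. Other members were near the detection limit in PBS and untested over all libraries, so only their levels are given. Plaur, the urokinase receptor, was at 0.289 to 0.661 CPM after PBS and at 0.51, 4.99 and 2.82 CPM after TNF. Ly6c1, a marker of monocytes and endothelium that shares sequence with Ly6a, had no count in PBS or TNF replicate 1 and was at 2.69 and 2.82 CPM in TNF replicates 2 and 3. In these replicates Lynx1 was at 2.25 and 1.61 CPM and Ly6m at 1.71 and 1.85 CPM, with at most 0.51 CPM in any other library.

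**Figure D3:**
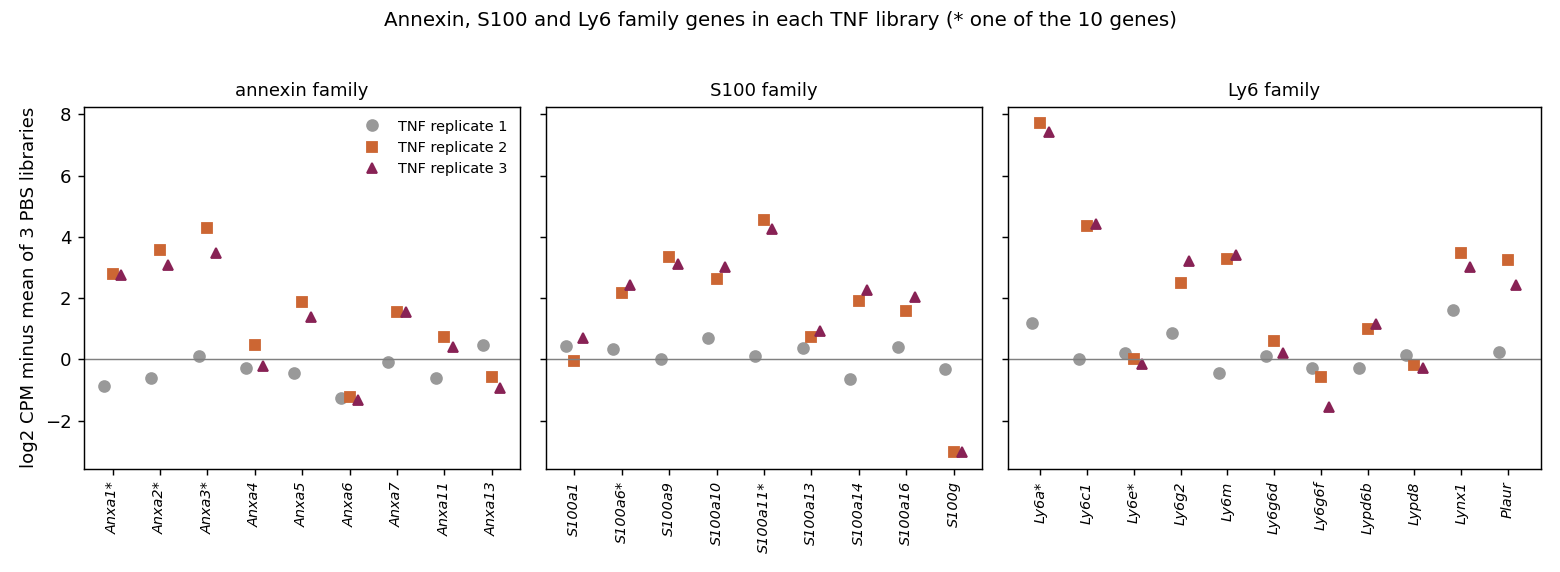
Difference of log2 CPM from the mean of the 3 PBS libraries, for each TNF library, in the annexin, S100 and Ly6 families (asterisks mark the 10 genes). In TNF replicates 2 and 3 Anxa3 stands highest among the annexins, at 4.30 and 3.48, and S100a11 among the S100 genes, at 4.56 and 4.27, while TNF replicate 1 lies between -1.28 and 1.60 for all genes shown.

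Of 26 other genes reported for fetal-like or regenerating gut epithelium, 15 were called higher, 0 lower and 11 neither way without TNF replicate 1. The median log2 fold change was 1.02 over all libraries and 1.22 without TNF replicate 1. The antimicrobial lectin Reg3b was at 422, 539 and 641 CPM after PBS and at 663, 12028 and 19161 CPM after TNF (4.31 ± 0.99 over all libraries), and its relative Reg3g had a log2 fold change of 3.14 ± 0.80. Duox2, which makes hydrogen peroxide, was at 20.4 to 21.7 CPM after PBS and at 24.0, 412 and 254 CPM after TNF (3.44 ± 0.78). Nos2, which makes nitric oxide, was at 1.76 to 6.42 CPM after PBS and at 3.23, 38.2 and 76.1 CPM after TNF (3.29 ± 0.90). Lcn2, which withholds iron from bacteria and did not pass the filter over all libraries, was at 0.0721, 0 and 0.22 CPM after PBS and at 0.34, 72.4 and 89.0 CPM after TNF. These 5 genes are known for defence against bacteria as well as for regeneration. The keratin Krt18 was at 374 to 494 CPM after PBS and 369.9 to 807 CPM after TNF, without a call.

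Of 16 tested genes of YAP, TAZ and TEAD and their targets, 1 was called higher, 0 lower and 15 neither way without TNF replicate 1, and the median was -0.02. The gene called higher was Yap1 itself, at 29.5, 33.7 and 34.4 CPM after PBS and 28.5, 49.1 and 49.1 CPM after TNF (0.38 ± 0.25 over all libraries). Tead1, Lats1 and Myof had log2 fold changes of -0.45 ± 0.22, -0.44 ± 0.21 and -0.09 ± 0.19. The targets Ccn2 and Ankrd1, chosen after their values were seen, had no count in any library. Of the 8 AP-1 subunits tested, 0 were called in either direction by edgeR, 0 had an unadjusted p under 0.05 over all 6 libraries, and the median was -0.24. Jun was at 63.3 to 119 CPM after PBS and 88.0 to 139 CPM after TNF, and Fosl2 and Jund had log2 fold changes of -0.23 ± 0.18 and -0.24 ± 0.25.

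Of 17 tested targets of NF-kB, the main transcription factor downstream of TNF, 11 were called higher and 3 lower without TNF replicate 1, and the median was 1.33 over all libraries and 1.75 without it. Cxcl16 was at 1.30, 1.20 and 0.808 CPM after PBS and at 3.82, 56.4 and 74.0 CPM after TNF (5.33 ± 0.93), a case in which TNF replicate 1 too was above the PBS libraries. The same held for the adhesion molecule Icam1, at 0 to 1.25 CPM after PBS and at 1.61, 24.2 and 32.2 CPM after TNF (5.19 ± 1.16), and for Ccl20 (3.64 ± 0.89). Cxcl1 and Cxcl2, untested over all libraries, had no count in PBS and reached 2.66 and 4.43 CPM in TNF replicate 3. The feedback inhibitor Nfkbia and the subunit Nfkb1 had log2 fold changes of 0.83 ± 0.33 and 0.50 ± 0.28, and Sod2, an antioxidant enzyme, had 0.22 ± 0.28. The 3 called lower, named after their values were seen, were Bcl3, Cd83 and Nfkbiz.

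Of 27 tested interferon-inducible genes, 20 were called higher, 0 lower and 7 neither way without TNF replicate 1, in these mice without the type I interferon receptor. The median was 1.13 over all libraries and 1.54 without TNF replicate 1. Gbp2, a GTPase also induced by interferon-gamma, was at 0.938, 1.47 and 0.735 CPM after PBS and at 0.51, 48.7 and 37.7 CPM after TNF (4.78 ± 1.16). Gbp3, Isg15 and the peptide transporter Tap2 had log2 fold changes of 3.03 ± 1.21, 2.77 ± 1.08 and 2.62 ± 0.70. Ifit1, untested over all libraries, was at 0 to 0.4 CPM after PBS and at 0, 6.36 and 1.85 CPM after TNF. Ly6e, itself often counted among interferon-inducible genes, was not called. The class I genes B2m, H2-D1 and H2-K1 had log2 fold changes of 1.13 ± 0.31, 1.27 ± 0.48 and 0.29 ± 0.29.

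Of 21 tested p53 targets, 7 were called higher, 1 lower and 13 neither way without TNF replicate 1, and the median was 0.73 over all libraries and 0.72 without it. In 7 of the 21 genes every TNF library was above every PBS library, against 9.07% of all genes tested. Cdkn1a, the cell cycle inhibitor p21, was at 39.6, 24.8 and 40.0 CPM after PBS and at 46.8, 114 and 111 CPM after TNF (1.38 ± 0.35). The death genes Bax and Pmaip1 had log2 fold changes of 1.46 ± 0.38 and 1.10 ± 0.46, Phlda3 had 3.14 ± 0.88 and Eda2r 1.80 ± 0.37. Ccng1 and Trp53inp1 were at 131 to 165 and 73.5 to 117 CPM after PBS, and at 171 to 255 and 129.6 to 198 CPM after TNF. Btg2, which restrains the cell cycle, was the gene called lower, at 114 to 129 CPM after PBS and at 147, 76.0 and 76.2 CPM after TNF.

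Of 14 tested crypt stem cell genes, 0 were called higher, 6 lower and 8 neither way without TNF replicate 1, and the median was -0.36 over all libraries and -0.68 without it. Olfm4 was at 2374, 2224 and 1925 CPM after PBS and at 3887, 233 and 272 CPM after TNF, so TNF replicate 1 had the highest level of all and the other TNF libraries the lowest. Its log2 fold change was -0.57 ± 0.92 over all 6 libraries and -3.09 ± 0.29 without TNF replicate 1. Ascl2, a transcription factor of stem cells, had -1.13 ± 0.63 over all libraries, and Cdca7, Aqp4 and Tnfrsf19 had -0.76 ± 0.55, -0.64 ± 0.58 and -1.07 ± 0.43. Slc12a2 and Sox9, abundant genes of the list, had 0.12 ± 0.25 and -0.32 ± 0.24 over all libraries, without a call. Lgr5, named after its value was seen, was at 54.0 to 76.8 CPM after PBS and 42.2 to 69.0 CPM after TNF, without a call.

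**Figure D4:**
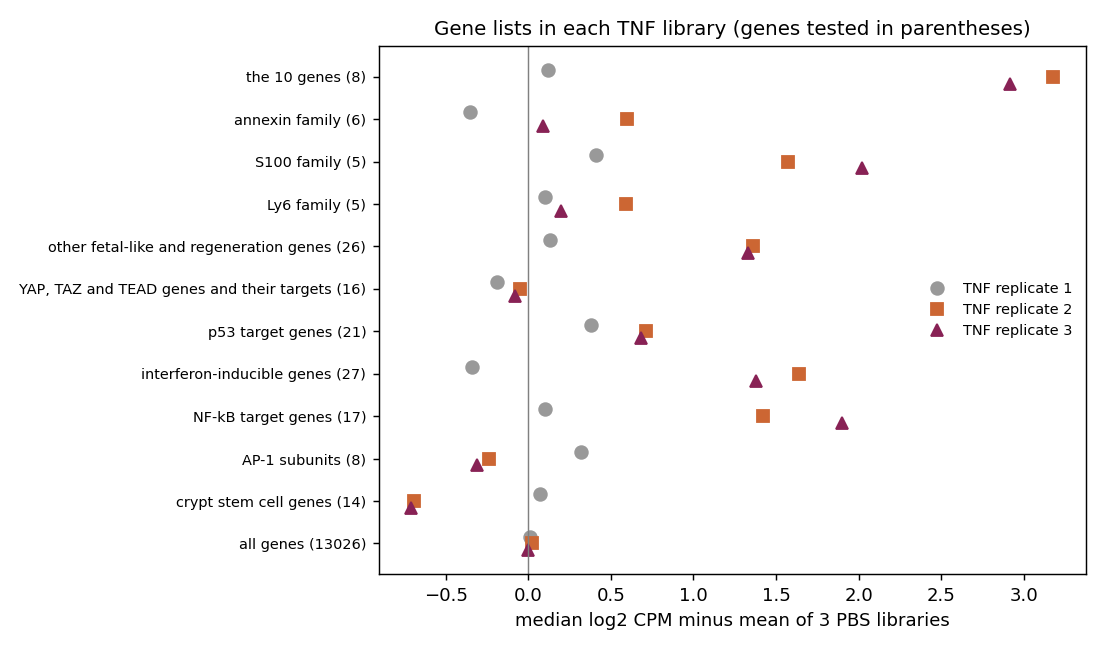
Median, over the tested genes of each list, of the difference of log2 CPM from the mean of the 3 PBS libraries, for each TNF library. The tested genes among the 10 (8 genes) reach 3.18 and 2.92 in TNF replicates 2 and 3 and 0.12 in TNF replicate 1. The YAP list stays between -0.19 and -0.05, and all tested genes together lie at 0.00 to 0.02. The 10 genes were picked on the TNF against PBS difference, so nothing is read from their distance to all genes.

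Markers of other cells that the sort could hold were read beside these values. Summed over 14 immune markers, the level was 21.5 to 53.4 CPM after PBS and 34.9 to 43.9 CPM after TNF, with Cd3g, Cd8a and Jchain at 0 in all 6. Nearly all of this sum came from Ptprc and Lyz2, at 3.9 to 33.9 and 13.1 to 27.6 CPM over the 6 libraries. Every other immune marker was at most at 0.685 CPM (Itgam in TNF replicate 2), so the sum says little about them. For 14 stromal and endothelial markers the summed level was 0 to 2.87 CPM after PBS and 0.242 to 2.30 CPM after TNF. The endothelial genes Cdh5, Kdr and Emcn and the fibroblast genes Col1a2, Dcn and Lum were at 0 in all 6 libraries, and the endothelial gene Pecam1 was at 0.391 CPM in TNF replicate 2 and at 0 in the other 5. Ly6a, which vessels also express, was highest in that same library, and the part of these cells in its level was not tested. Enterocyte markers (13 genes) summed to 323 to 372 CPM after PBS and to 274, 124 and 96.2 CPM after TNF, with 5 of 8 tested genes called lower without TNF replicate 1. Goblet cell markers (8 genes) summed to 4875 to 5194 CPM after PBS and 3983 to 4901 CPM after TNF, with 5 of 7 called lower. Tuft cell markers (8 genes) summed to 494 to 1734 CPM after PBS and 609.6 to 1184 CPM after TNF with 0 called, enteroendocrine markers (9 genes) to 49.7 to 169 and 38.3 to 110.5 CPM with 1 of 7 called lower, and erythroid markers (5 genes) to at most 0.334 CPM. Among the 12 Paneth cell markers 2 were called higher and 2 lower. The enterocyte and goblet cell sums were lowest in TNF replicates 2 and 3, in which most of the 10 genes were highest, and their part in the result was not tested.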

How the data were processed

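The data were 1 table of raw counts per Ensembl gene with 6 columns, which the authors deposited as whole numbers. Per the labels, RNA of sorted PCs was purified with a column kit and sequenced as single-end reads on an Element AVITI, and the submitters' processing notes name FastQC, Trimmomatic 0.39, STAR 2.7.10a, DESeq2 and genome mm39 without their roles. Not given in the sources used here are the counting tool, the annotation, the use of strand and the rule for multimapping reads, so shared and overlapping genes are uncertain. The paper read for style describes other experiments.

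Here, 54749 identifiers were matched to GENCODE symbols (GRCm39), and the unmatched ones held 0.0193% of the counts. In R 4.3.3, edgeR 4.0.16 tested TNF against PBS over 6 libraries with the two-sided quasi-likelihood test, after filterByExpr (minimum count 10, minimum total 15) and TMM scaling, with group as the only term and Benjamini-Hochberg adjustment at 0.05. The SE was computed from the log2 fold change and the F statistic (their quotient after taking the root of F). Log2 CPM used a prior count of 2. The code was tested on simulated data. Limits from counts cover counting error only. Libraries of a group differed by more than sampling noise (chi-square per degree of freedom of at least 27.6).

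The 10 genes and the comparison lists (11 families and pathways, 8 marker lists) were chosen with earlier results of these data known. Named genes were the 10, Ifnar1 and the 3 most correlated genes per tested member. Per family or pathway list they were up to 5 called without TNF replicate 1 with the largest change in that fit, and the 3 most abundant. The marker lists are given as sums, and single markers were named after their values were seen. Alternatives were DESeq2 1.42.0, limma-voom (limma 3.58.1), RLE factors, library size alone, TMM without genes holding over 1% of counts, testing every gene with a count, testing genes with a mean of 5 CPM or more, the replicate number as a block, each library left out, and the longest transcript as length.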

Additional observations from a re-analysis of the deposited data

How the results depend on the processing

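Over all 6 libraries 0 genes were called, with 0 of the 8 tested genes among the 10 and 0 of the comparison lists. Ly6a and Sprr1a were not tested there. These counts stayed at 0 with RLE factors, library size alone, scaling without genes above 1% of counts, a mean CPM of at least 5 (5 of the 10 tested) and limma-voom. Without the low-count filter 690 genes were called (7 of the 10, 64 in the lists). DESeq2 called 242 genes (206 higher and 36 lower), with 4 of the 8 tested among the 10 and 24 in the lists. Leaving out 1 library gave 0 to 1980 genes, 0 to 8 of the 10 (with 8 or 10 of them tested) and 0 to 99 in the lists. Every count above 0 came from leaving out TNF replicate 1. Without it 13660 genes passed the filter instead of 13026, among them genes that passed only through the TNF libraries in which they are high. The cause of these differences was not tested.

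No pairing by replicate number was seen: deviations from the group means correlated at -0.0128, -0.0748 and 0.0311 for numbers 1, 2 and 3. With 3 libraries per group and TNF replicate 1 apart from the other TNF libraries, these values cannot exclude a batch shared by number. With the replicate block 0 genes were called, 0 of the 8 tested among the 10 and 0 in the lists.

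Across these alternatives the log2 fold changes of Clu (0.76 to 1.34), Anxa1 (1.85 to 2.85), Anxa2 (1.98 to 3.37), Anxa3 (2.76 to 4.18), S100a6 (1.52 to 2.31), S100a11 (3.06 to 4.48) and Sprr2a3 (4.05 to 5.50) kept their sign. Ly6e ranged from -0.34 to 0.43 and kept its sign in 12 of 15 settings. With the longest transcript as length, Clu (0.465 CPM per kb) came ahead of Anxa1 (0.413) in PBS. Depth limits Ly6a, Sprr1a and Sprr2a3 in PBS, with 2, 0 and 10 counts over 3 libraries.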
